A study of Mus musculus with 5 samples.

Results

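Cytotoxic effector genes were followed across the cell classes of MC38 tumors and tumor-draining lymph nodes (TDLNs). The 8 genes, Gzma, Gzmb, Gzmc, Gzmk, Prf1, Fasl, Ifng, and Nkg7, were chosen by name as effector genes of killer lymphocytes, and all 8 were found as gene expression features in each of the 5 count matrices, which list 32285 genes for TDLNs and 33696 for MC38 tumors. Male WT C57BL/6J mice of 8 to 10 weeks carried a subcutaneous implant of TRAMP-C2 (a prostate cancer line, whose TDLNs were taken) or MC38 (a colon carcinoma line, whose tumors were taken). Isotype antibody or CPI (anti-CTLA4 plus anti–PD-1) was injected on days 3, 6, and 9, vehicle or 20 mg/kg of the JAK1 inhibitor ABT-317 on day 12, and tissue was harvested on day 15. The study's sequencing methods count these days from implantation for both lines. Its legend for the MC38 experiment counts them from enrollment, once tumors had reached a set size. The time from implantation to treatment and harvest of the MC38 tumors is therefore uncertain. By the deposited hashtag key, the TDLN pools held isotype, CPI, and CPI + ABT-317, and the MC38 pools these 3 and isotype + ABT-317. Cells of all treatments were labeled with hashtag antibodies and pooled, TDLN cells unsorted and tumor cells as a 1:1 mix of sorted CD45+ and CD45- cells, and run as 3 TDLN reactions and 2 MC38 reactions. A reaction was therefore 1 sample of all its treatments together, and because nothing states that reactions held different mice, p-values may measure technical spread only.

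Cytotoxic lymphocytes kill through granules or through death receptors. In the granule route, perforin (Prf1) opens the membrane of the target and granzymes, serine proteases stored in the same granules, enter and cleave proteins that start cell death, with Nkg7 as a granule membrane protein that aids their release. In the death receptor route, Fas ligand (Fasl) on the killer cell engages Fas on the target. Interferon-gamma (Ifng) is the cytokine made by the same cells, which raises antigen presentation and signals through JAK1 and JAK2.

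Granzyme genes lie in clusters in the mouse genome. On GRCm38, Gzmb (chr14:56258838-56262260) and Gzmc (chr14:56231441-56234656) are at one end of a run of 7 granzyme genes on chromosome 14, all on the minus strand, in the order Gzme, Gzmd, Gzmg, Gzmn, Gzmf, Gzmc, and Gzmb over 144.6 kb. Gzma (chr13:113093825-113100981) and Gzmk (chr13:113171608-113225908) form a pair within 132.1 kb of chromosome 13. The other members are protein-coding genes at chr10:61297833-61304680 (Prf1), chr1:161780689-161788495 (Fasl), chr10:118441046-118445892 (Ifng), and chr7:43437073-43438249 (Nkg7). The 250 bases before the RefSeq start are printed, on the gene's strand, for the 5 members that differed between NK and CD8 T cells in the tumors, from chr13:113100982-113101231 (minus strand, Gzma), chr14:56262335-56262584 (minus strand, Gzmb), chr14:56234658-56234907 (minus strand, Gzmc), chr10:61297586-61297835 (plus strand, Prf1), and chr10:118440796-118441045 (plus strand, Ifng) of GRCm38.p6. Capitals mark the letters GTGTGA, the core bound by T-box factors such as T-bet and Eomes, and TGTGGT, bound by Runx factors, or their reverse complements TCACAC and ACCACA.
Gzma: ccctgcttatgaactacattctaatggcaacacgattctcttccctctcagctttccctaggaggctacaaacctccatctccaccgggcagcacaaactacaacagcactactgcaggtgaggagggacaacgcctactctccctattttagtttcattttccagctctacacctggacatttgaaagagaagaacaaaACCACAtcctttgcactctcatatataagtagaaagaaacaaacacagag
Gzmb: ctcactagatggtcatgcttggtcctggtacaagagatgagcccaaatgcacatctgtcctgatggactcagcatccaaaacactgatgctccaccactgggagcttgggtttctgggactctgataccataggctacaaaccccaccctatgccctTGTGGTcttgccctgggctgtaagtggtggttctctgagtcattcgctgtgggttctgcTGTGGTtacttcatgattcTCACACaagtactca
Gzmc: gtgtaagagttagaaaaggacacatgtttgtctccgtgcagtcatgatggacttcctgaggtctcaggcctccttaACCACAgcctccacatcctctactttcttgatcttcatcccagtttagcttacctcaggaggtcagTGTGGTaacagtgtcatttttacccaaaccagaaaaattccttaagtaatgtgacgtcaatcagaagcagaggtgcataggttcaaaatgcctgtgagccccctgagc
Prf1: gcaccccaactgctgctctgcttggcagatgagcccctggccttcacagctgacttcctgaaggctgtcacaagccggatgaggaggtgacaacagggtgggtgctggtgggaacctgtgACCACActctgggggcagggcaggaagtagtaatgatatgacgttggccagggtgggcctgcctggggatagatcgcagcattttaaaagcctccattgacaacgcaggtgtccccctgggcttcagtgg
Ifng: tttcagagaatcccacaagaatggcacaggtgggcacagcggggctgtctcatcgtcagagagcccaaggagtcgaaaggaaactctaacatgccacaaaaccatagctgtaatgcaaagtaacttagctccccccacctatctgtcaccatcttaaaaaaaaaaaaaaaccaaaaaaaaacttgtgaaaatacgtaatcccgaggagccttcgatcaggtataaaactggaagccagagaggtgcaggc

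In these windows, GTGTGA was present in Gzmb, and TGTGGT once in Gzma and Prf1 and at 2 places in Gzmb and in Gzmc. Ifng had neither within 250 bases, which says nothing about its other regulatory sequence. Of 32851 RefSeq promoters of this length, 12.3% held GTGTGA and 14.05% held TGTGGT on either strand, so these letters are common and a match is a description only. Of the members not printed, Gzmk had GTGTGA at 2 places, Nkg7 had each motif, and Fasl had neither.

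Cell classes were set by marker genes that did not include the members. A T cell barcode had at least 2 unique molecular identifiers (UMIs, each 1 captured RNA molecule) of Cd3d, Cd3e, Cd3g, and Trac and few UMIs of other lineages, and was divided by Cd8a or Cd8b1, Cd4, and Foxp3. An NK cell had no UMI of these 4 genes and at least 2 UMIs of 6 NK receptor genes. MC38 reactions 1 and 2 gave 182 and 174 CD8 T cells, 25 and 34 conventional CD4 T cells, 12 and 10 Tregs, and 14 and 17 NK cells, and TDLN reactions 1, 2, and 3 gave 264, 800, and 21 CD8 T cells, 55, 125, and 2 conventional CD4 T cells, 11, 38, and 0 Tregs, and 2, 6, and 1 NK cells. These are few of the 7050 to 62575 barcodes of a reaction (18055617 to 435031691 gene UMIs). T cell barcodes with no UMI of Cd8a, Cd8b1, Cd4, or Foxp3 formed a class that no test used. They numbered 184 and 150 in MC38 and 191, 607, and 12 in TDLN, so the CD8 and CD4 classes hold only T cells in which such a UMI was captured. TDLN reaction 1 has more barcodes than the cells the study's methods state for a reaction, so a barcode cannot be taken as a cell in every case. In TDLNs, 70.2%, 70.7%, and 73.7% of barcodes were mixed T barcodes, which were not used as T cells. These had 2 or more T cell UMIs but too small a share of them or too many UMIs of other lineages. Mixed NK barcodes were set apart likewise, also by a T cell UMI, so a mixed barcode need not hold several lineages. Between any 2 libraries, 3.16% to 8.76% of the barcodes of the smaller library were shared. The share that unrelated libraries would have by chance was not computed, so nothing is read from these values. The MC38 NK cells had all 8 NK markers above 0, 6 of which set the class, and a summed NK marker level of 3352 and 4729 CPM (UMIs scaled to 1000000 UMIs of the class), against 267 and 254 CPM in CD8 T cells. Macrophage or monocyte markers summed to 2370 and 800 CPM in NK cells and 1700.1 and 1913 CPM in CD8 T cells, and their part in the results was not tested. These markers include Ly6c2, which was not used to set the classes. By surface antibody, the median CD90.2 count was 54 and 54.5 in CD8 T cells, 14.5 and 15 in NK cells, and 5 and 5 in unclassed barcodes, whereas the NK1.1 antibody did not separate NK cells (22.5 and 25) from CD8 T cells (23 and 23). In unclassed barcodes the NK1.1 median was 23 and 24. CD107a, which reaches the surface when granules are released, had similar medians in these classes (58 and 57 in CD8 T cells, 55.5 and 56 in NK cells). Its medians were higher in unclassed barcodes (71 and 77) and in macrophages or monocytes (81 and 85). The CD107a counts therefore cannot be read as granule release. For the TDLN reactions, every deposited antibody value was 0, so TDLN cells could not be assigned to treatments.

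In MC38 tumors, granzyme A, B, and C and perforin transcripts were higher in NK cells than in CD8 T cells, Ifng was lower, and Nkg7 did not pass the test. Differences between classes were tested with edgeR's quasi-likelihood test on UMIs summed per class and reaction, adjusted (Benjamini-Hochberg) over all genes tested, with a call at an adjusted p under 0.05. Of the 8 members, 6 had enough counts for the test, and 5 were called, 4 higher in NK cells and 1 higher in CD8 T cells, where 10.8% of the 1046 genes tested were called in either direction (4.11% higher in NK and 6.69% higher in CD8 T cells). The low-count filter kept genes above about 202 CPM in at least 2 sums. Gzma, Gzmc, and Prf1 reached this level in NK cells and not in CD8 T cells, whereas Fasl and Gzmk reached it in neither, so the count of members higher in NK cells was partly set by the filter. Ifng reached it in CD8 T cells and not in NK cells, so the filter bears on its call in the same way. The 2 classes also differed in treatment tags. Barcodes with exactly 1 hashtag above its threshold included 121 and 116 CD8 T cells and 5 and 2 NK cells of CPI. Those of isotype were 3 and 5 CD8 T cells and 4 and 5 NK cells. These labels depend on the hashtag rule, and class and treatment mix cannot be told apart in this comparison. Values below are in CPM with exact Poisson 95% intervals, which cover counting error only, as do all intervals here.

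Gzmc, a granzyme of the chromosome 14 run, had the highest fold change of the members. In NK cells it stood at 16439.6 CPM (15299 to 17643) from 770 UMIs in reaction 1 and 11698 CPM (10821 to 12627) from 658 UMIs in reaction 2, and in CD8 T cells at 10.1 CPM (2.09 to 29.6) from 3 UMIs and 16.1 CPM (4.39 to 41.2) from 4 UMIs. The ratio within a reaction was 1621 (553 to 7879) and 726 (282 to 2673), and the fitted log2 fold change was 10.08 ± 0.58 (SE, edgeR adjusted p = 1.15e-08). Because the CD8 T cell level rests on so few UMIs, the ratio is known only within these wide limits. The level depended on which barcodes were taken as NK cells. Leaving out barcodes with 2500 or more genes, as the study's methods do, gave 13851 and 2172 CPM (474 and 78 UMIs) and kept the call. A stricter class gate asked for a higher share of NK marker UMIs and fewer UMIs of other lineages. It left 8 NK cells in reaction 1 with 0 Gzmc UMIs, as all 770 passed to mixed NK barcodes. In reaction 2 it left 14 NK cells with all 658. The stricter gate therefore has 1 NK sum, from reaction 2, in every NK comparison, with the spread taken from the other classes, and its call of Gzmc rests on that reaction. Under this gate the 8 NK cells of reaction 1 still held 38 Gzma UMIs (3702 CPM), 2 Gzmb UMIs, and 2 Prf1 UMIs.

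Gzma, of the chromosome 13 pair, had 46 and 129 UMIs in NK cells (982 and 2293 CPM) and 13 and 5 UMIs in CD8 T cells (43.9 and 20.1 CPM). Its ratio was 22.4 (11.9 to 45.1) and 114 (47.6 to 357), and its log2 fold change 5.73 ± 0.50 (SE, edgeR adjusted p = 2.63e-06). Both NK sums lay above both CD8 T cell sums. Gzmk, its neighbor on chromosome 13, showed the reverse placement, with 0 UMIs in the NK cells of either reaction (which allows up to 64.1 and 53.3 CPM) and 13 and 16 UMIs (43.9 and 64.4 CPM) in CD8 T cells. A lower level of Gzmk in NK cells was not detectable at this depth in reaction 1. In reaction 2 the CD8 T cell level was at least 1.21-fold higher than the NK limit, with a counting interval (36.8 to 105 CPM) that includes the limit, and the gene had too few counts to be tested.

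Gzmb, which cleaves caspases and Bid, stood at 534 CPM (345 to 788) and 1653 CPM (1334 to 2025) in NK cells and at 112 CPM (76.8 to 157) and 370.5 CPM (299 to 454) in CD8 T cells. The level of each class was higher in reaction 2, and the ratio was 4.79 (2.73 to 8.30) and 4.46 (3.31 to 6.02). The log2 fold change was 2.35 ± 0.52 (SE, edgeR adjusted p = 0.00857). It was 1.21, with an adjusted p of 0.0882, when barcodes with 2500 or more genes were left out, so this call depends on the deepest cells. The 4 and 2 NK cells with 20 or more Gzmc UMIs held 23 of the 25 and 74 of the 93 Gzmb UMIs, and 1 cell held 69 of the 93. The other 10 and 15 NK cells held 2 and 19 Gzmb UMIs (114 and 493 CPM), near the CD8 T cell level in reaction 1. Prf1 stood at 299 CPM (163 to 502) and 569 CPM (389 to 803) in NK cells and 57.5 CPM (33.5 to 92.0) and 64.4 CPM (36.8 to 105) in CD8 T cells, a ratio of 5.20 (2.37 to 11.2) and 8.83 (4.70 to 17.2) and a log2 fold change of 2.96 ± 0.51 (SE, edgeR adjusted p = 0.0012). Of its 14 and 32 UMIs in NK cells, 12 and 18 were in the same 4 and 2 cells, and the other NK cells stood at 114 CPM, from 2 UMIs, and 363 CPM.

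Ifng was higher in CD8 T cells than in NK cells. CD8 T cells held 106 UMIs in 54 cells and 141 UMIs in 55 cells, or 358 CPM (293 to 433) and 568 CPM (478 to 670), and NK cells held 0 UMIs in reaction 1 and 8 UMIs in 4 cells (142 CPM, 61.4 to 280.2) in reaction 2. In reaction 1 the level in CD8 T cells was at least 5.59-fold higher than the NK limit of 3 counts, and in reaction 2 the NK level was 0.25 (0.106 to 0.507) of it. The limit of reaction 1 rests on 46838 UMIs of 14 NK cells. The stricter gate left 8 NK cells with 10264 UMIs there, so the limit is higher with that gate. The fitted log2 fold change of NK over CD8 T cells was -2.44 ± 0.61 (SE, edgeR adjusted p = 0.018), and the call was lost in DESeq2 (adjusted p = 0.0852) and with the stricter gate and its 1 NK sum (adjusted p = 0.0721). Fasl had 2 and 3 UMIs in NK cells (42.7 and 53.3 CPM) and 38 and 41 UMIs in CD8 T cells (128 and 165 CPM). Its ratio of 0.332 (0.0389 to 1.29) and 0.323 (0.0640 to 1.01) included 1 in both reactions, and it was not tested for lack of counts. Nkg7 stood at 1495 CPM (1165 to 1888) and 1422 CPM (1128 to 1770) in NK cells and at 1217 CPM (1094 to 1349) and 1901 CPM (1733 to 2080) in CD8 T cells. The NK values lay between those of the CD8 T cells, with a log2 fold change of 0.03 ± 0.28 (SE, edgeR adjusted p = 0.97).

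**Figure D1:**
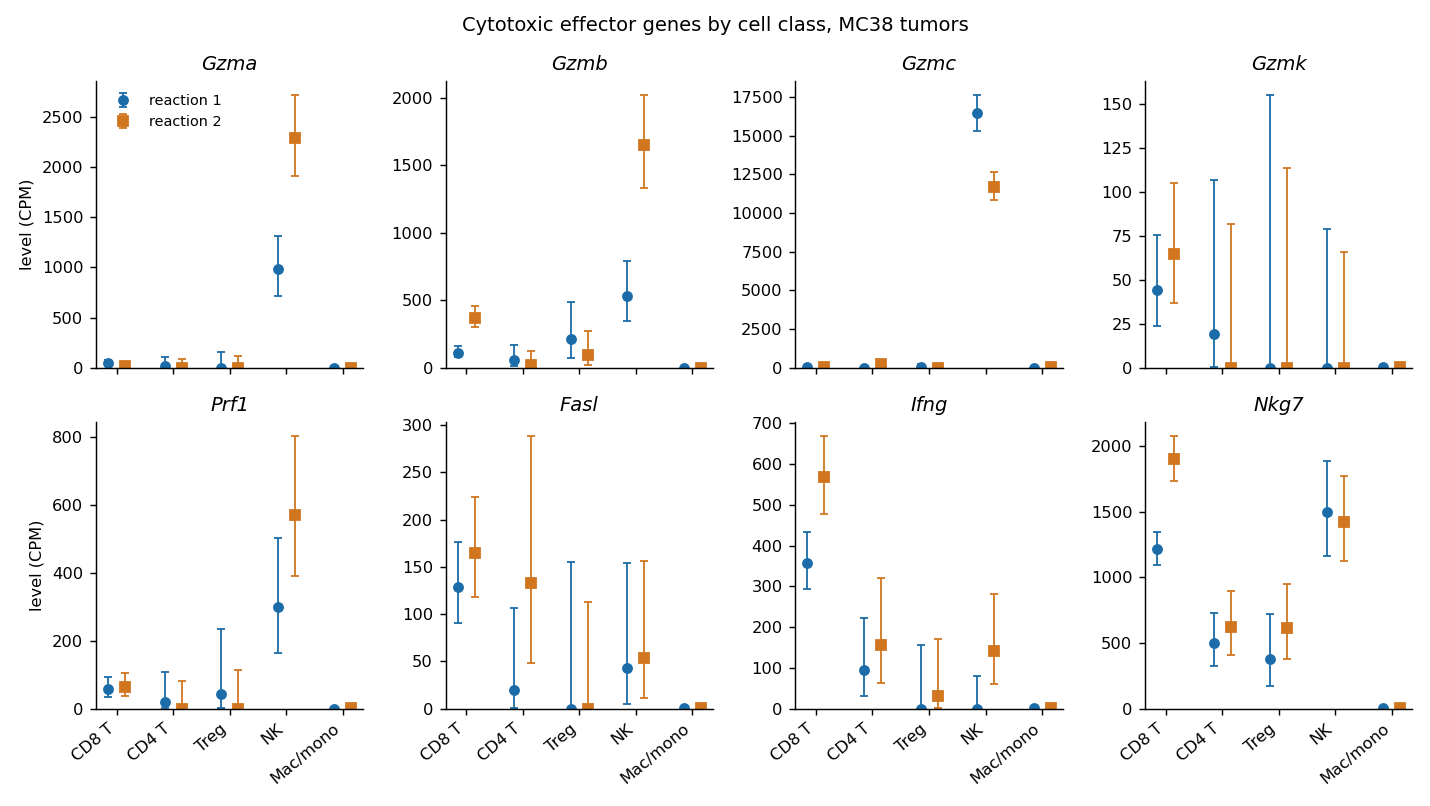
Levels of the 8 genes in MC38 tumors, in CPM on the y axis (a scale of its own for each gene), by cell class on the x axis, with circles for reaction 1, squares for reaction 2, and bars for exact Poisson 95% intervals. Gzma, Gzmb, Gzmc, and Prf1 are highest in NK cells, Ifng in CD8 T cells, and macrophages or monocytes lie near 0 for all.

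**Figure D2:**
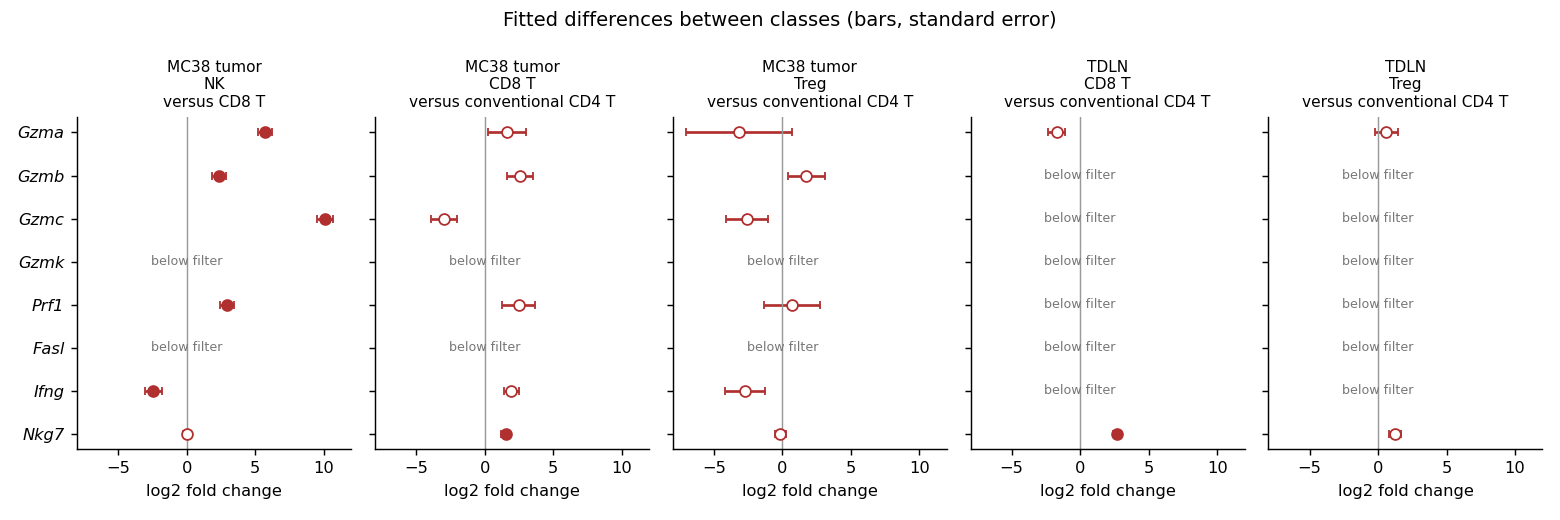
Fitted log2 fold changes (x axis) with their standard errors for each gene (y axis) in the 5 comparisons of classes, where filled points have an edgeR adjusted p under 0.05. Nkg7 is the only gene called in a comparison of CD8 with conventional CD4 T cells, and no gene is called in either Treg comparison.

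The Gzmc UMIs came from a few NK cells. Of the 14 and 17 NK cells, 5 and 5 had a Gzmc UMI, and 4 and 2 of them, with 104 to 296 and 56 to 580 UMIs each, held 768 of the 770 and 636 of the 658 Gzmc UMIs. Among these 4 and 2 cells, 2 and 1 had a Gzma UMI (6, 2, and 5 UMIs). The cell with 580 Gzmc UMIs also held 507 of Gzmd, 210 of Gzme, 279 of Gzmf, 216 of Gzmg, 69 of Gzmb, and 14 of Prf1, and no Gzma. Gzma reached 35, 25, and 18 UMIs in cells that held 1, 7, and 0 Gzmc UMIs and no Gzmd. These groups of cells differed in depth. The cells with 20 or more Gzmc UMIs had medians of 6185 and 8856 UMIs in all, and the others 1317.5 and 1688, and their Gzma level was 274 and 282 CPM against 2159.7 and 3218 CPM in the others. The part of depth in this difference was not tested.

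The counts of Gzmc and its neighbors are uncertain as far as reads could be shared between near-identical copies. Of all 50-base windows in annotated transcripts, 4.14% of those of Gzmc, 7.36% of Gzmf, 19.8% of Gzmg, 20.6% of Gzme, and 21.9% of Gzmd occur in another granzyme, and none of those of Gzma, Gzmb, or Gzmk does. In the cell with 56 Gzmc UMIs, Gzmd, Gzme, Gzmf, and Gzmg were all at 0. Gzmc at 20 or more UMIs was found in 12 and 9 barcodes of the 2 reactions, not all of them classed as NK cells. By class these were 4 and 2 NK cells and 6 and 1 mixed NK barcodes (22 to 277 and 39 Gzmc UMIs). Macrophage or monocyte barcodes were 1 and 2 (35 and 27 to 254). The rest were 1 mixed T barcode in reaction 2 (26) and 1 and 3 unclassed barcodes (28 and 37 to 126).

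**Figure D3:**
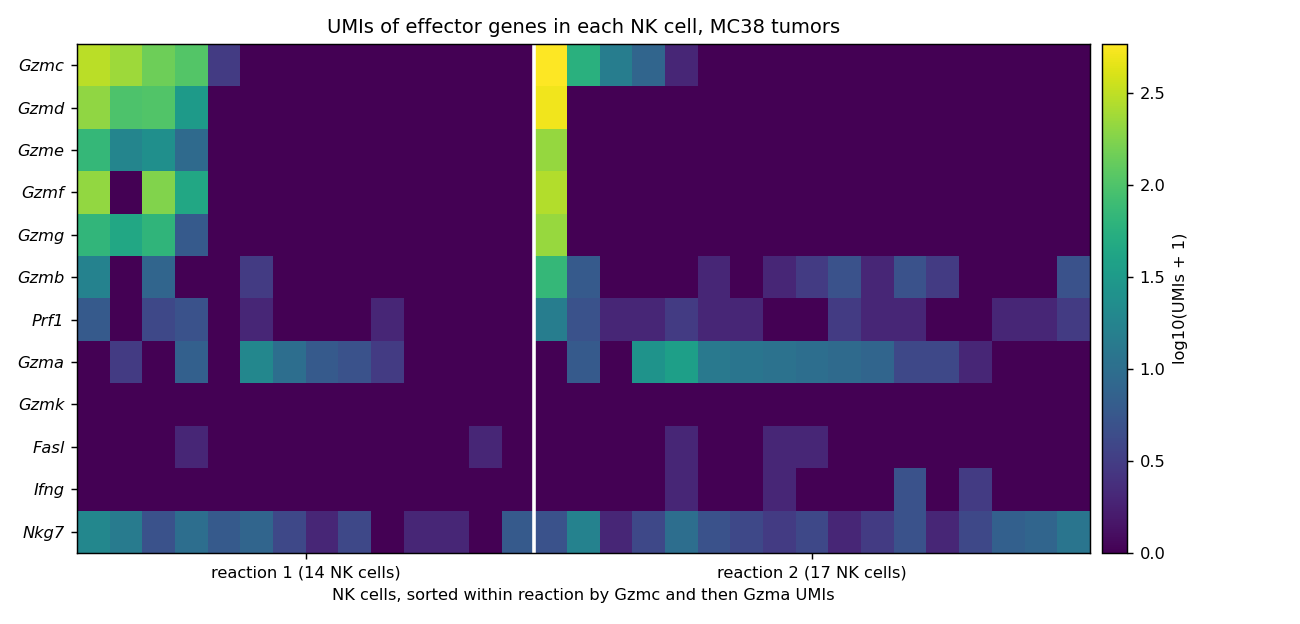
Heat map of UMIs, as log10 of the count plus 1 (color), of effector genes (rows) in each of the 14 and 17 NK cells of MC38 reactions 1 and 2 (columns, sorted within a reaction by Gzmc and then Gzma). Cells with 56 to 580 Gzmc UMIs are at the left of each reaction, and most Gzma UMIs are in other cells.

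In CD8 T cells of MC38 tumors, Ifng was spread over many cells and Gzmb was held by few. Ifng was detected in 29.7% (23.1 to 36.9) and 31.6% (24.8 to 39.1) of cells (exact Clopper-Pearson intervals), with at most 7 and 16 UMIs in a cell. Gzmb was detected in 8.24% (4.69 to 13.2) and 8.62% (4.91 to 13.8), and 3 cells held 54.5% and 69.6% of its UMIs. Fasl was detected in 17.6% and 19.0%, Prf1 in 8.79% and 6.90%, Gzmk in 5.49% and 8.05%, Gzma in 1.10% and 2.30%, Gzmc in 1.65% and 2.30%, and Nkg7 in 77.5% and 83.9%. Macrophage or monocyte barcodes, which should lack these genes (median 3500.5 and 4097 UMIs, against 1310 and 1157 in CD8 T cells), held Nkg7 in 0.762% and 0.549% and Ifng in 0.254% and 0.124%.

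With Nkg7 left aside, 49.5% and 48.3% of the MC38 CD8 T cells held none of the other 7 genes. Of 32 and 33 cells with Fasl, 16 and 18 also held Ifng, where 54 of all 182 and 55 of all 174 cells held Ifng. Of 15 and 15 cells with Gzmb, 7 and 7 held Ifng and 0 and 5 held Prf1. Cells with more UMIs in all detect more genes, and the part of depth in these overlaps was not tested.

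Conventional CD4 T cells of MC38 tumors held less Nkg7 than CD8 T cells. Nkg7 stood at 498 CPM (325 to 729) and 620 CPM (412 to 895) in CD4 T cells, below both CD8 T cell values, a CD8 to CD4 ratio of 2.45 (1.64 to 3.79) and 3.07 (2.10 to 4.67) and a log2 fold change of 1.54 ± 0.31 (SE, edgeR adjusted p = 0.011). Of the 6 members tested, it was the 1 called, where 2.68% of 1046 genes were called in either direction (0.765% higher in CD8 T cells and 1.91% higher in CD4 T cells).

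Ifng stood at 95.7 CPM (31.1 to 223) from 5 UMIs and 155 CPM (62.3 to 319) from 7 UMIs in CD4 T cells, each from 3 cells. Both values lay below both CD8 T cell values, with a CD8 to CD4 ratio of 3.74 (1.55 to 11.8) and 3.67 (1.73 to 9.28). The log2 fold change of 1.95 ± 0.56 did not pass (SE, edgeR adjusted p = 0.109). It passed with reaction as a replicate block (log2 fold change 1.95, adjusted p = 0.0443), the fit that pairs cells of the same pooled reaction, and also with a stricter gate (1.53, adjusted p = 0.0191), with fewer than 2500 genes per cell (1.78, adjusted p = 0.0493), and without the low-count filter (2.18, adjusted p = 0.00165).

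Gzmb had 3 and 1 UMIs in CD4 T cells (57.4 and 22.1 CPM), with a log2 fold change of 2.56 ± 0.95 for CD8 over CD4 T cells (SE, edgeR adjusted p = 0.28). Gzmc was placed the other way, with 0 and 11 UMIs in CD4 T cells, the 11 in 3 cells of reaction 2, and a log2 fold change of -2.97 ± 0.94 (SE, edgeR adjusted p = 0.175). Both passed with the stricter gate (3.30 for Gzmb and -3.21 for Gzmc) and without the low-count filter (2.79 and -2.75). Prf1 and Gzma each had 1 and 0 UMIs in CD4 T cells and did not pass (adjusted p = 0.424 and 0.757 in edgeR). Fasl had 1 and 6 UMIs in CD4 T cells, a ratio of 6.71 (1.13 to 272) and 1.24 (0.525 to 3.58), and Gzmk 1 and 0, and neither was tested.

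Tregs of MC38 tumors were too few for most members. Their 12 and 10 cells held 9 and 20 Nkg7 UMIs (378 and 614 CPM), close to conventional CD4 T cells, with a ratio of 0.760 (0.313 to 1.67) and 0.991 (0.529 to 1.82) and a log2 fold change of -0.15 ± 0.40 (SE, edgeR adjusted p = 0.92). Gzmb had 5 UMIs in 1 cell and 3 UMIs in 2 cells (210.2 and 92.1 CPM), and its log2 fold change over CD4 T cells was 1.75 ± 1.32 (SE, edgeR adjusted p = 0.66). Ifng had 0 and 1 UMIs, Gzmc and Prf1 had 1 and 0, and Gzma, Gzmk, and Fasl had none, which allows up to 126 and 92.1 CPM. With edgeR, 0 of 6 members tested were called, 0 were under an unadjusted p of 0.05, and DESeq2 called 0, where 0.0956% of the 1046 genes were called.

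The genes around the members were taken as lists of the granule and death receptor pathways. Between MC38 NK and CD8 T cells, 10.8% of all genes tested were called, and the median log2 fold change of all genes was -0.0048. Of 9 granule proteases, 5 were tested, and Gzmd, Gzme, Gzmf, and Gzmg, chromosome 14 neighbors of Gzmc, were higher in NK cells. These 4 passed the filter through the NK cells, so their number is a description only. Gzmd had 429 and 507 UMIs in NK cells and 3 and 3 in CD8 T cells, a ratio of 903 (307 to 4397) and 746 (254 to 3630). Gzmg had 177 and 216 UMIs in NK cells and 0 and 0 in CD8 T cells, at least 373-fold and 318-fold higher than the limit of 3 counts. In reaction 1 the NK cell UMIs of these 4 genes lay within the 4 cells with 104 to 296 Gzmc UMIs. In reaction 2 they were all in 1 cell, the one with 580 Gzmc UMIs, so the ratios of that reaction describe 1 cell.

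In the granule loading list, Cst7, an inhibitor of cathepsins, was higher in NK cells (log2 fold change 1.59, 1 of 3 tested of 14 listed), and so was Serpinb9, the inhibitor of granzyme B (1.81, the 1 tested of 6 listed). Tnf was lower in NK cells (-2.98), the 1 tested of 11 genes of death receptors and ligands. Of 6 tested genes of interferon-gamma receptor and induction (median log2 fold change -0.50), Irf8 was higher in NK cells (3.63). Of 4 chemokines tested (median -1.68), Xcl1 was higher (2.87) and Ccl3 (-3.02) and Ccl4 (-3.12) were lower. Of 8 regulators tested (median -1.22), 4 were lower in NK cells, where 6.69% of all genes were, and one of them, Il7r, passed the filter only through T cells. These were Nr4a1 (-2.26), Nr4a2 (-2.01), and Nr4a3 (-3.15), nuclear receptors induced by T cell receptor signals, and Il7r, the IL-7 receptor, with 0 and 0 UMIs in NK cells and 113 and 99 in CD8 T cells, at least 5.96-fold and 7.48-fold lower. Between CD8 and CD4 T cells, 2 of the 4 chemokines were higher in CD8 T cells, Ccl4 (2.15) and Ccl5 (1.29), where 0.765% of all genes were, and no gene of the other 6 lists passed. No listed gene passed between MC38 Tregs and CD4 T cells.

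In TDLNs, Nkg7 was the one member found in most CD8 T cells. It stood at 421 CPM (380.1 to 466), 413 CPM (388 to 440) and 428 CPM (282 to 622) in the 3 reactions, in 59.8%, 60.5%, and 57.1% of cells, and in conventional CD4 T cells at 75.7 CPM (40.3 to 129) and 64.7 CPM (39.0 to 101) in reactions 1 and 2, with 2 cells and no UMI in reaction 3. The 3 CD8 T cell values lay above the CD4 T cell values of reactions 1 and 2, at a ratio of 5.57 (3.22 to 10.5) and 6.38 (4.06 to 10.6). The log2 fold change was 2.70 ± 0.28 (SE, edgeR adjusted p = 4.70e-07). It was 1 called of 2 members tested, where 1.62% of 3942 genes were called in either direction (0.431% higher in CD8 T cells and 1.19% higher in CD4 T cells). Macrophage or monocyte markers were also higher in these CD8 T cells, summing to 511, 607, and 349 CPM in the 3 reactions (3, 4, and 9 of 10 markers at 0). In conventional CD4 T cells of reactions 1 and 2 they summed to 52.4 and 88.6 CPM (9 and 7 of 10 at 0). The sums include Ly6c2, which was left out of the markers that set the classes, and values of single markers are not given here. The part of these markers in the Nkg7 difference was not tested. B cells, which should lack Nkg7, held 12.8 and 7.90 CPM in reactions 1 and 2. Barcodes without a class, which can hold any cell type, held more Nkg7 than conventional CD4 T cells, at 132.5 to 149 CPM and in 15.1% to 19.1% of barcodes.

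The other TDLN members were low. Gzma had 13, 29, and 0 UMIs in CD8 T cells (14.4, 12.0, and 0 CPM) and 1 and 21 UMIs in CD4 T cells of reactions 1 and 2, all 21 in 1 cell. Of the CD8 T cell UMIs, 10 of 13 in reaction 1 were in 3 cells and 22 of 29 in reaction 2 in 1 cell. Its log2 fold change of -1.73 ± 0.61 did not pass (SE, edgeR adjusted p = 0.234). Prf1 stood at 15.5, 17.8, and 15.8 CPM in CD8 T cells (14, 43, and 1 UMIs). Barcodes without a class held Gzma at 12.4 to 20.9 CPM and Prf1 at 11.1 to 17.9 CPM, ranges that overlap those of the CD8 T cells. Fasl had 6, 18, and 1 UMIs (6.65, 7.47, and 15.8 CPM), Ifng 4, 16, and 3 (4.44, 6.64, and 47.5 CPM, the 3 UMIs of reaction 3 in 1 cell), Gzmk 2, 16, and 0, Gzmb 2, 9, and 0, and Gzmc 1, 0, and 0. The 2, 6, and 1 NK cells of the TDLNs held 41, 44, and 0 Gzma UMIs, 2, 14, and 0 Gzmb UMIs, 0, 1, and 1 Gzmc UMIs, and 10, 28, and 3 Nkg7 UMIs, and were too few to be tested. No TDLN NK cell reached the 56 or more Gzmc UMIs of the MC38 NK cells that held most of them.

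TDLN Tregs held 1 and 20 Nkg7 UMIs in reactions 1 and 2 (45.6 and 213 CPM), and the difference from CD4 T cells changed sign when reaction 2 was left out, which leaves 1 Treg and 1 CD4 T cell sum and takes the spread from other classes (-1.11 against a log2 fold change of 1.22 ± 0.44 with it, SE, edgeR adjusted p = 0.221). Gzma had 0 and 9 UMIs and Gzmb 0 and 6 in these Tregs, the 6 in 1 cell. With edgeR, 0 of the 2 members tested were called, 1 was under an unadjusted p of 0.05, and DESeq2 called 0, where 1.67% of 3942 genes were called (1.14% higher in Tregs and 0.533% higher in CD4 T cells). In the pathway lists, CD8 T cells exceeded CD4 T cells in Ctsw (log2 fold change 1.92), 1 of 3 granule proteases tested, and in Cst7 (2.19), and were lower in Stx11 (-2.49), 2 of 10 genes of granule loading, and in Tox (-1.07), 1 of 11 regulators. Without reaction 1, Ctsw alone of these 4 was called, and without reaction 2 none was. Tregs exceeded CD4 T cells in Stx11 (2.57), 1 of 10, Hopx (2.77), 1 of 7 genes of interferon-gamma receptor and induction, and Tox (0.93), and were lower in Tcf7 (-1.87) and Bach2 (-1.04), 3 of 11 regulators. Leaving out reaction 3, which has no Treg sum, kept 4 of these 5 calls and lost that of Tox. Without reaction 1, Hopx and Tcf7 were called, and without reaction 2 none of the 5 was.

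Set side by side, CD8 T cells of MC38 tumors held Ifng, Fasl, and Nkg7 in a larger share of cells than those of TDLN reactions 1 and 2. After each cell was thinned to 800 UMIs, Ifng was found in 20.2% and 22.3% of 173 and 148 MC38 cells and in 0%, 0.375%, and 5.26% of 263, 799, and 19 TDLN cells. Fasl was found in 12.1% and 8.78% against 0.380%, 0.375%, and 0%, and Prf1 in 6.36% and 2.70% against 0.380%, 1.00%, and 0%. Gzmb was found in 3.47% and 9.46% against 0.380%, 0.25%, and 0%, and Nkg7 in 56.6% and 77.0% against 19.8%, 27.7%, and 36.8%. Gzma did not stand apart, at 1.16% and 2.03% in MC38 against 1.14%, 0.375%, and 0%, with overlapping intervals. Gzmc was found in 1.16% and 2.03% against 0% in each TDLN reaction, and Gzmk in 2.89% and 3.38% against 0%, 0.125%, and 0%. For Ifng, Fasl, and Nkg7, the intervals of both MC38 shares lay above those of TDLN reactions 1 and 2, and for Prf1 and Gzmb the shares lay above but some of their intervals overlapped. Reaction 3 of the TDLNs had 19 cells, so that its share of 0 allows up to 17.6% and its Ifng share up to 26.0% (exact Clopper-Pearson). A lower share of these genes, Nkg7 aside, was not detectable there. The Nkg7 interval of that reaction (16.3% to 61.6%) lay below that of MC38 reaction 2 (69.4% to 83.5%) and overlapped that of MC38 reaction 1 (48.9% to 64.1%). Without thinning, Ifng was found in 29.7% and 31.6% of MC38 cells and 1.14%, 1.38%, and 4.76% of TDLN cells. Cells shallower than 800 UMIs were left out (9 and 26 in MC38, 1, 1, and 2 in TDLN). The class gate also differed, with antigen-presenting genes under 0.2% in TDLN and 1% in MC38, and so did the treatments pooled. Tissue, tumor line, time since implantation, treatment mix, gate, sorting, library, software version, and the reference gene list cannot be told apart in this comparison. It was therefore given no test.

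**Figure D4:**
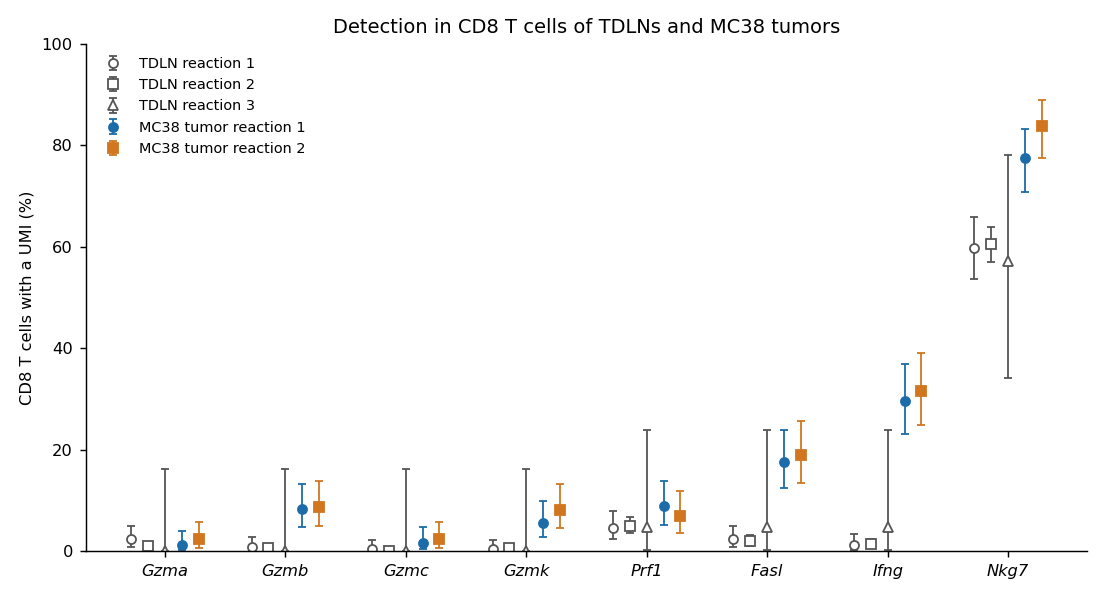
Share of CD8 T cells (y axis, percent) with at least 1 UMI of each gene (x axis), without thinning, for 3 TDLN and 2 MC38 reactions. Bars are exact Clopper-Pearson 95% intervals. Ifng lies at 29.7% and 31.6% in MC38 and at 1.14% to 4.76% in TDLN.

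Many UMIs of the members lay outside the single-lineage classes. In TDLNs, mixed T barcodes held 61.8% to 100% of the UMIs of each member. Of all gene UMIs of reactions 1, 2, and 3, they held 95936110 of 127052825, 78961941 of 105259770, and 15765674 of 18055617. A large share in these barcodes is therefore not particular to the members. In MC38 tumors, NK cells held 51.2% and 48.1% of the Gzmc UMIs in barcodes that passed the filters, 16.8% and 35.6% of Gzma, 6.93% and 25.5% of Gzmb, and 0% and 1.38% of Ifng. The T cell classes held 24.4% and 32.1% of Gzmb and 27.3% and 36.9% of Ifng, and mixed T barcodes 38.0% and 45.8% of Ifng. The levels above therefore describe cells that could be assigned to 1 lineage, and no doublet caller was used.

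**Figure D5:**
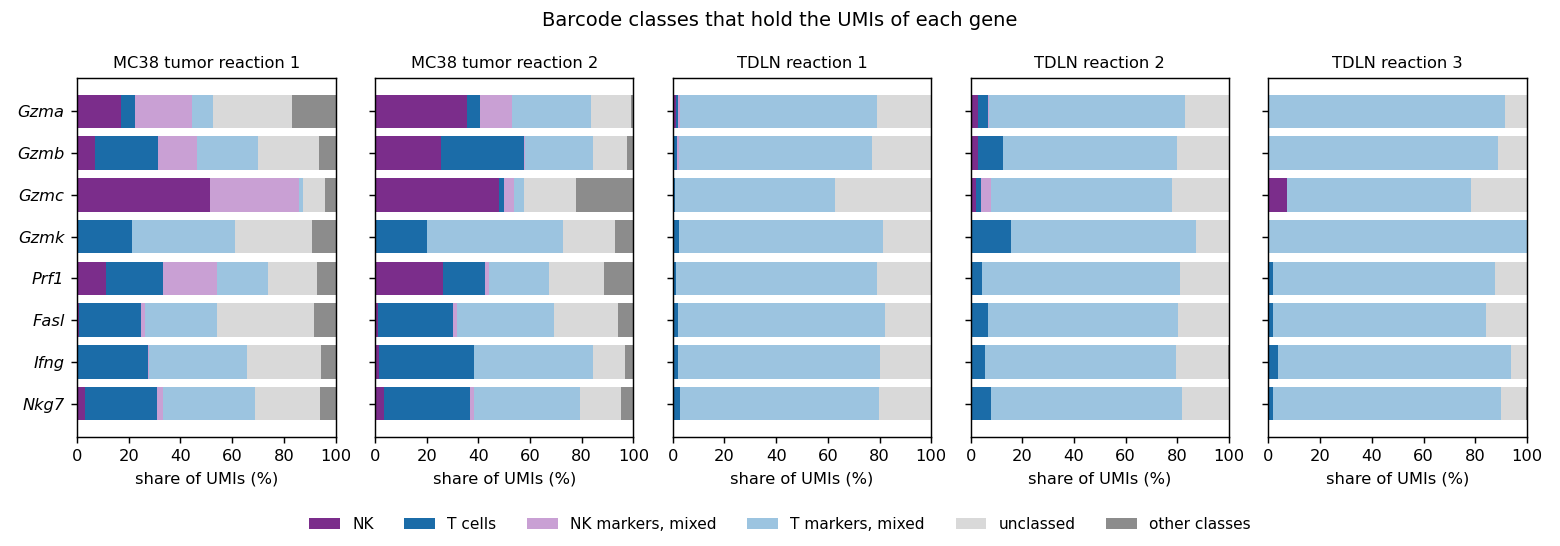
Share of the UMIs of each gene in barcodes that passed the filters (bars, percent) found in NK cells, T cell classes, mixed barcodes, unclassed barcodes, and the rest, for each reaction. In the TDLN reactions the mixed T cell barcodes hold 61.8% to 100% of every gene, and in MC38 tumors NK cells hold 51.2% and 48.1% of Gzmc.

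Treatments could be read only in MC38 tumors, from hashtags, and only CPI gave enough CD8 T cells. Barcodes with exactly 1 hashtag above its threshold gave 121 and 116 CD8 T cells for CPI, 3 and 5 for isotype, 0 and 1 for CPI + ABT-317, and 0 and 0 for isotype + ABT-317, so no contrast between treatments was tested in CD8 T cells, Tregs, or NK cells. These labels depend on the rule. When the leading hashtag had to exceed the next by 1 natural log unit, CD8 T cells numbered 26 and 18 for CPI, 7 and 2 for isotype, 4 and 6 for CPI + ABT-317, and 1 and 1 for isotype + ABT-317, so that no treatment but CPI reached 10 cells under either rule. The values that follow use the first rule. The median CPI hashtag count was 99 and 55.5 in CD8 T cells against 22 and 12 in all barcodes, and the isotype hashtag was above its threshold in 68.2% and 61.2% of all barcodes. The threshold was 42 and 38 counts for CPI and 206 and 163 for CPI + ABT-317. The CPI + ABT-317 hashtag had medians of 59 and 42 in CD8 T cells against 86 and 62 in all barcodes. The labels therefore also depend on these unequal thresholds. In CPI-tagged CD8 T cells, Ifng stood at 429 CPM (338 to 538) and 493 CPM (388 to 618), Nkg7 at 1351 and 1735 CPM, Fasl at 126 and 204 CPM, Gzmb at 97.4 and 224 CPM, Prf1 at 68.7 and 52.6 CPM, and Gzmk at 51.5 and 52.6 CPM. The 3 and 5 isotype-tagged CD8 T cells held 0 and 16 Ifng UMIs. Gzmc in NK cells was 400 UMIs in 4 cells and 57 in 5 cells for isotype, 0 in 5 and 7 in 2 for CPI, and 225 in 1 and 580 in 2 for CPI + ABT-317, which is the same few cells seen through their tags. By the leading hashtag, these became 298 UMIs in 2 cells and 0 cells for isotype, 0 cells in either reaction for CPI, and 368 UMIs in 2 cells and 594 in 7 for CPI + ABT-317, so no treatment can be read for Gzmc.

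Over 26 sums of classes and reactions in the MC38 tumors, each member was set against the 18635 genes with at least 50 UMIs by the correlation of log2(CPM + 10). The sums share their libraries and differ in depth, so these are descriptions. Gzmc was most like Gzmg (Pearson r = 0.941), Gzmb like Cst7 (0.948), Fasl like Klrk1 (0.952), which encodes the NKG2D receptor, Nkg7 like Skap1 (0.976), Ifng like Gm30603 (0.958), and Gzmk like Gm44174 (0.934). Gzma was most like Klra7 (0.958) and Prf1 like Klre1 (0.931), both genes that set the NK class. Among the members themselves, Prf1 was most like Gzma (0.908), Gzmb like Nkg7 (0.899), and Ifng like Fasl (0.897).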

How the data were processed

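Single-cell RNA and antibody counts of 3 TDLN and 2 MC38 reactions were used. The authors deposited raw UMI counts per feature and barcode, made with Cell Ranger against GRCm38 (mm10) by the submitters' processing notes. The MC38 matrices list more genes than those of TDLN, among them Gm30603, absent from the GRCm38 annotation used here, so their reference may differ. The file headers give version 7.1.0 for TDLN and 8.0.1 for MC38, and the submitters' processing notes give 3.1.0. Barcodes with at least 200 genes and under 10% mitochondrial UMIs were kept. Classes were set from marker UMIs. A class needed 2 lineage UMIs, T cell genes at 0.1% of UMIs or NK genes at 0.05%, and antigen-presenting genes under 0.2% (TDLN) or 1% (MC38). These limits were set after the data were seen. Doublets were not called. UMIs were summed per class and reaction where at least 10 cells were present. Sums were tested in 1 fit per tissue with edgeR 4.0.16 (R 4.3.3; filterByExpr, TMM, glmQLFit and glmQLFTest, Benjamini-Hochberg). The script was checked on simulated counts. Members and gene lists were chosen with earlier results of these data known. All members were named, with the gene most like each by correlation, and up to 4 called genes of a pathway list in a comparison, by largest fold change. The position and barcode examples of the granzymes near Gzmc were chosen after their values were seen. Barcodes of the same reaction were processed together, so reaction numbers pair classes. Correlations of deviations between classes of 1 reaction ranged from 0.00821 to 0.266. Alternatives were DESeq2 1.42.0, RLE factors, no low-count filter, fewer than 2500 genes, a stricter gate (T cell genes at 0.15%, NK genes at 0.1%, antigen-presenting genes under 0.1% in TDLN and 0.5% in MC38), the leading hashtag, thinning, a replicate block, and leaving out reactions. Promoters came from RefSeq (GRCm38.p6) and gene positions from the GRCm38 annotation. Intervals are 95%. A count of 0 allows up to 3 counts. Intervals cover counting error only. The treatment contrasts and the TDLN NK contrast had under 10 cells in a sum and were not run.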

Additional observations from a re-analysis of the deposited data

Results flagged for a closer look

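Gzmc was found in macrophage or monocyte barcodes of the MC38 tumors, a class outside the comparisons, at 43 UMIs in reaction 1 and 292 UMIs in reaction 2. In reaction 2, 254 of these UMIs were in 1 barcode, which also held 213 Gzmd, 89 Gzme, and 146 Gzmg UMIs and no UMI of the NK genes that set the class.

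Gzma was found in the mixed T barcodes of TDLNs, also outside the comparisons, at 2220, 1184, and 452 UMIs in reactions 1, 2, and 3. These were 76.4%, 75.8%, and 91.5% of all Gzma UMIs of the reaction. The same barcodes held 95936110 of 127052825, 78961941 of 105259770, and 15765674 of 18055617 gene UMIs. The Gzma shares were thus not far from those of all UMIs.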

How the results depend on the processing

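The number of members called between CD8 and conventional CD4 T cells of MC38 tumors, 1 as reported, was 2 with fewer than 2500 genes per cell, 4 without the low-count filter, 2 with the replicate block, and 4 with the stricter gate. The other 31 counts of members called stayed within 1.5 times. Of the recomputed log2 fold changes, 120 kept their direction and side of the threshold, 8 passed it newly, and 3 lost it. Of mean levels in CPM, 17 of 47 moved by more than 1 SD between reactions with thinning, 13 of 42 with the stricter gate, and 5 of 47 with fewer than 2500 genes. The sign turned for Nkg7 in NK versus CD8 T cells of MC38 tumors (-0.29 without the low-count filter and -0.086 with the stricter gate, which has 1 NK sum) and in TDLN Treg versus CD4 T cells without reaction 2 (-1.11, against 1.58 without reaction 1, each with 1 Treg and 1 CD4 T cell sum), and the cause was not tested. Over all genes, calls between TDLN CD8 and CD4 T cells, 64 as reported, were 25 with DESeq2, 235 with the replicate block, 40 without reaction 1, and 9 without reaction 2, and for TDLN Tregs, 66 as reported, 34, 168 with the replicate block, 31 with the stricter gate, and 1 without reaction 2. In MC38 tumors, 113 calls for NK versus CD8 T cells were 60 with DESeq2 and 186 without the filter, 28 for CD8 versus CD4 T cells were 44 with the stricter gate, and 1 for Tregs was 5 with DESeq2, 4 with fewer than 2500 genes, 18 without the filter, and 3 with the replicate block. Leaving out 1 of the 2 MC38 reactions left no residual degrees of freedom, so each reaction's values were given instead, and the stricter gate left no MC38 Treg comparison. A single sum, assumed to vary like the other classes, stood for MC38 NK cells and TDLN Tregs with the stricter gate and for MC38 Tregs with fewer than 2500 genes. Depth leaves members at 0 UMIs only with an upper limit, such as 126 and 92.1 CPM in MC38 Tregs.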
